A study of Homo sapiens with 24 samples.

Results

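The MAGE cancer testis genes described here are MAGEA1, MAGEA3, MAGEA4, MAGEA6, MAGEA10, MAGEA12, MAGEB2, MAGEC1 and MAGEC2. They were taken by gene symbol, from a family chosen with earlier results of these data known, and the annotation gave them 19 probes, so 9 genes of 20046 named genes and 19 probes of 47231. MAGEA6 had 3 probes and each of the others had 2. Illumina HumanHT-12 V4 arrays had been hybridised with RNA of 3 cell lines, T24 (a bladder cancer cell line), HL60 (a promyelocytic leukemia cell line, labelled HL-60) and HCT116 (a colon cancer cell line). Each line received the combinatorial treatment (labelled Combination), 5-Aza-CdR alone (labelled AZA), clorgyline alone (labelled Clorgyline) or neither (labelled Ctrl), on 2 arrays per condition, so that 24 arrays were analysed. 5-Aza-CdR, which depletes cells of DNA methyltransferase activity, was present for 24 hours, at 1 µM for T24, at 0.1 µM for HL60 and at 0.3 µM for HCT116. Clorgyline, an inhibitor of monoamine oxidase A and of the histone demethylase LSD1, was added every day at 10 µM, and RNA came from day 18 for T24 and HL60 and from day 20 for HCT116. The 3 doses of 5-Aza-CdR differ, so a difference between lines cannot be told apart from a difference in dose.

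MAGE genes of type I, to which all 9 members belong, lie on the X chromosome in the A, B and C subfamilies and are normally transcribed in male germ cells. In most somatic cells their promoters are DNA methylated and silent, and many tumors transcribe them again. Their proteins share the MAGE homology domain, through which several bind RING-type ubiquitin ligases, and peptides of MAGE-A and MAGE-C proteins are presented on MHC class I and recognised by T cells. Loss of promoter methylation after 5-Aza-CdR is a classical way of inducing members of the family in cultured cells.

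The promoters are shown because the genes silent in untreated T24 and those already active there can be compared in sequence. RefSeq (GRCh38.p14) gave promoter windows, 250 bases before to 50 bases after a start site, for 7 of the 9 members with 12 start sites, and MAGEA1 and MAGEA10 are named only. The lines give the inner part of each window, 200 bases before to 10 bases after the start on the strand of the gene, 5′ to 3′, with the heptamer GGATGTG in capitals. MAGEC2 and MAGEA4 stand for members at background in untreated T24, MAGEB2 and MAGEA3 for members above it, MAGEA3 only barely and with 1 of its 2 probes. The stretches printed are chrX:142205281-142205490 on the minus strand for MAGEC2, chrX:151912274-151912483 on the plus strand for site 1 of 5 of MAGEA4, chrX:30215363-30215572 on the plus strand for MAGEB2 and chrX:152698594-152698803 on the plus strand for MAGEA3.
MAGEC2: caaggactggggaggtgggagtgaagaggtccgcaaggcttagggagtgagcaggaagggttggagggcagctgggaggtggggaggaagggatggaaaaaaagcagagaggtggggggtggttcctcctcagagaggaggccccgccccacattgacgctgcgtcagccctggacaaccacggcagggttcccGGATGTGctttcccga
MAGEA4: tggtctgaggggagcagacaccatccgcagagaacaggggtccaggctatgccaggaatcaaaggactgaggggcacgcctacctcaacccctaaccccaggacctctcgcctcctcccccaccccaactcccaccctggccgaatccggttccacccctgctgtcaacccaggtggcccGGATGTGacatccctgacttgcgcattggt
MAGEB2: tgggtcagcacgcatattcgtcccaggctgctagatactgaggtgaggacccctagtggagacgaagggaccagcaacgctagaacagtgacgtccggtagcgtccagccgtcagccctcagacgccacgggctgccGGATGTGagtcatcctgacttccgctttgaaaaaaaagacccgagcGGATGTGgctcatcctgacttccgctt
MAGEA3: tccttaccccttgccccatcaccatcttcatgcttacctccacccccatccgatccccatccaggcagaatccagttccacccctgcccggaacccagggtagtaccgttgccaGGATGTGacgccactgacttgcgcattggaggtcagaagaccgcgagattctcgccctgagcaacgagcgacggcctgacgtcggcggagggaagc

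All 12 member windows held GGATGTG on the sense strand, against 2.17% of the 35116 promoter windows of the same length in the table (4.29% on either strand). The heptamer was chosen after the sequences were seen, and the members share ancestry, so the count is a description. It began 6 bases before the start in MAGEC2, 20 before in MAGEA4 site 1 and 86 before in MAGEA3, and the first of its 2 copies began 63 before in MAGEB2. Of 17 windows of other type I MAGE genes 9 held it, and of 13 windows of type II MAGE genes, which are expressed broadly in somatic tissues, 0 did. GGAT is a form of the core that ETS family transcription factors can bind, and no binding was measured here. The MAGEA3 and MAGEA6 windows were identical over all 300 bases. CpG dinucleotides, the sites of DNA methylation, were counted over the whole 300-base windows. Of the members at background in untreated T24, MAGEC2 had 10, MAGEC1 14 and the 5 sites of MAGEA4 10, 11, 13, 15 and 15. Of those above it, MAGEA12 had 9 and 15 at its 2 sites, MAGEA3 and MAGEA6 19 each and MAGEB2 21, so the ranges overlap, and the median over all promoter windows was 14. The stretches printed hold 7 in MAGEC2, 7 in MAGEA4, 15 in MAGEB2 and 14 in MAGEA3. The same stretch of the sites not printed held 11 in MAGEC1 and 7, 9, 10 and 13 in MAGEA4. It held 4 and 13 in MAGEA12 and 14 in MAGEA6, so the ranges overlap there too.

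Values are the deposited log2 normalized intensities, which are normalized within a cell line and cannot be compared between lines or between probes. Background was set on each array at the 95th percentile of 457 probes for olfactory receptors, genes with little expression outside the nose, which came to 8.12 to 8.15 on the T24 arrays, 7.61 to 7.65 on HL60 and 7.73 to 7.76 on HCT116. A probe was above background in a group when both arrays exceeded their limit. Log2 changes close to these limits are compressed. Some changes from a group at background are therefore also given as at least N-fold, the treated mean over the limit. The other changes from background are given without this bound and are compressed as well. The labels do not tell whether replicates came from separate cultures, and p-values therefore rest on array-to-array spread, which may be technical. In bulk arrays a higher signal from more cells of a population and from more RNA per cell cannot be told apart.

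The lines were checked against their defining markers before the results. On the untreated HL60 arrays 6 of 8 myeloid markers were above background, among them MPO, and on the untreated arrays of both other labels 0 of 8 were. On the untreated arrays labelled T24, 2 of 8 urothelial markers (UPK1A and PPARG) and 3 of 10 intestinal epithelial markers (CDX2, CDH1 and EPCAM) were above background. The HCT116 control arrays had 2 of 8 urothelial (PPARG and GATA3) and 2 of 10 intestinal epithelial markers (TFF3 and EPCAM) above it. The 6 treated arrays labelled HCT116 correlated with the arrays labelled T24 at a median r of 0.985 (0.969 to 0.994) over all probes, and with the 2 HCT116 control arrays at a median of 0.907. Arrays labelled T24 correlated among themselves at a median of 0.985 (0.973 to 0.997), and the 2 HCT116 control arrays with each other at 0.966. EPCAM, an epithelial adhesion molecule, averaged 12.48, 12.34 and 12.07 on the combinatorial, 5-Aza-CdR and clorgyline arrays labelled HCT116, against 7.86 on the HCT116 control arrays, while CDH2 averaged 7.58, 7.62 and 7.98, against 11.16 (1 probe each). Every comparison of treated with control arrays labelled HCT116 therefore goes with a difference in line markers, and treatment and that difference cannot be told apart. On the untreated arrays labelled T24 the same EPCAM and CDH2 probes averaged 12.64 and 8.04, with CDH2 at background. Of 6 mesenchymal markers 4 were above background there, against 5 on the HCT116 control arrays, CDH2 among them. Whether either label names the right line was not tested. The arrays of both labels are called by their labels throughout, so T24 and HCT116 below mean arrays with that label.

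Which members were already expressed without drug differed by label. On the untreated T24 arrays 9 of 19 probes were above background, against 34.85% of all probes on the array, and they belonged to 5 genes. These were MAGEB2 (11.14 and 11.23 with ILMN_1688335, and 9.49 and 9.53 with ILMN_2078430), MAGEA12 (9.14 and 9.13 with ILMN_2231003), all 3 probes of MAGEA6 (8.89 and 8.87 with ILMN_2372681), and 1 of 2 probes each of MAGEA3 (8.27 and 8.24 with ILMN_1652276) and MAGEA1 (8.24 and 8.25 with ILMN_1722830). MAGEA3 and MAGEA6 share nearly all of their sequence, so their probes may report both genes, and the other MAGEA1 probe was at background (8.03 and 7.99). With the 99th percentile of the olfactory receptor probes as the limit, 6 probes of 3 genes (MAGEA6, MAGEA12 and MAGEB2) stayed above it, so MAGEA1 and MAGEA3 are only barely above background without drug. MAGEA4, MAGEA10, MAGEC1 and MAGEC2 had no probe above background on both untreated T24 arrays.

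On the untreated HL60 arrays 2 of 19 probes were above background, against 36.7% of all probes. MAGEB2 ILMN_1688335 read 10.11 and 10.20, far above the limit, while the second MAGEB2 probe, ILMN_2078430, read 7.39 and 7.34, below it. The MAGEB2 probes therefore disagree in HL60, although both are above background on T24 arrays. MAGEC2 ILMN_1757152 read 7.99 and 8.06 and the other MAGEC2 probe, ILMN_2088876, read 7.27 and 7.35, again above and below the limit. On the untreated HCT116 arrays 1 of 19 probes was above background, against 29.9% of all probes, and it was MAGEC1 ILMN_1720041 (7.76 and 7.79), on average 0.022 above its limit.

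**Figure D1:**
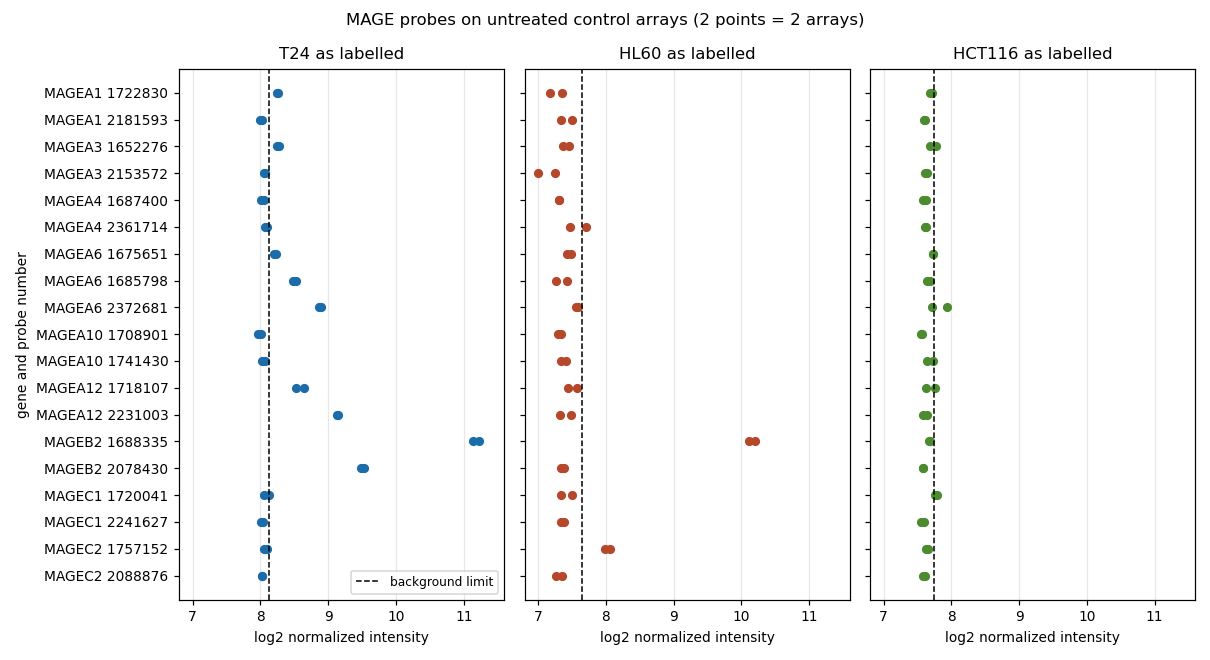
Log2 normalized intensity (horizontal axis) of the 19 MAGE probes (rows) on the 2 untreated control arrays of each label, each point 1 array, with the mean background limit of the 2 arrays as a dashed line. MAGEB2 ILMN_1688335 stands at 11.14 and 11.23 on T24 and at 10.11 and 10.20 on HL60 arrays, while on HCT116 control arrays it reads 7.68 on both.

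In T24 the combinatorial treatment raised at least 1 probe each of MAGEC2, MAGEA4, MAGEA10 and MAGEC1, which were silent without drug. MAGEA10 and MAGEC1 rose by less than 2-fold. The MAGEA1 probe at background rose too, as did 1 probe each of MAGEA6 and MAGEA3, already expressed, by less than 2-fold. Probes were called when the limma p, before adjustment, was under 0.01 and the change was over 2-fold, which are called the main limits below. With the combinatorial treatment 3 of 19 probes rose over control and 0 fell, where 0.229% of all probes rose and 0.0529% fell. These were MAGEC2 ILMN_2088876, MAGEA4 ILMN_2361714 and MAGEA1 ILMN_2181593, from 3 genes. At an adjusted p under 0.05 with no limit on the fold, 10 of 19 rose, where 1.71% of all probes did. The median log2 change of the 19 probes was 0.35, against −0.0029 over all probes. With the combinatorial treatment 17 of 19 probes were above background and all 9 genes had at least 1 such probe, against 9 probes and 5 genes on control arrays. Of all probes, 36.1% were above background on combinatorial arrays, against 34.85% on control arrays. Among the fixed marker lists, 8 of 10 intestinal epithelial and 3 of 7 germ cell markers were above background on the combinatorial arrays, against 3 and 0 on control arrays, with 0 of 13 and 0 of 10 probes past the main limits. Of 10 mesenchymal marker probes 2 rose and 2 fell past them, and VIM ILMN_1782538 averaged 11.71 in combinatorial, 11.50 in 5-Aza-CdR and 9.92 in clorgyline arrays, against 10.08 in control arrays. The part of these markers in the MAGE values was not tested.

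MAGEC2, whose protein binds the ubiquitin ligase TRIM28, changed most among the 19 probes. Probe ILMN_2088876 read 10.08 and 10.08 in combinatorial arrays, 8.60 and 8.49 in 5-Aza-CdR arrays and 7.96 and 8.01 in clorgyline arrays, against 8.03 and 8.03 in control cells. Clorgyline and control arrays lay at background, 5-Aza-CdR arrays above it, and the combinatorial arrays above all of them with no overlap. The log2 change over control was 2.05 ± 0.038 (SE, n = 2 arrays each, limma, adjusted p = 7.5e-06), at least 3.88-fold, for the combination, and 0.52 ± 0.038 (limma, adjusted p = 0.013), at least 1.34-fold, for 5-Aza-CdR. The 5-Aza-CdR change was under 2-fold, and its adjusted p was 0.18 without control replicate 1, 0.19 without control replicate 2 and 0.12 with only the groups compared. The second probe, ILMN_1757152, read 8.52 and 8.53 in combinatorial arrays, 8.19 and 8.19 in 5-Aza-CdR arrays and 8.13 and 8.09 in clorgyline arrays, against 8.05 and 8.09 in control cells. The combinatorial arrays were again the highest, with a log2 change of 0.46 ± 0.025 (limma, adjusted p = 0.00081). Over the 8 T24 arrays the MAGEC2 probes correlated at r = 0.989, a description of arrays that share their treatments. Probes of the other genes agreed to different degrees. The r was 0.98 for MAGEA4, 0.92 for MAGEC1, 0.91 for MAGEA1 and 0.70 to 0.78 for MAGEA6. It was 0.16 for MAGEA12, −0.17 for MAGEA10, −0.24 for MAGEB2 and −0.45 for MAGEA3.

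MAGEA4, a MAGE-A antigen targeted by engineered T cells, followed the same order of treatments. Probe ILMN_2361714 read 9.37 and 9.59 in combinatorial arrays, 8.51 and 8.65 in 5-Aza-CdR arrays and 8.06 and 8.12 in clorgyline arrays, against 8.09 and 8.07 in control cells. The log2 change with the combinatorial treatment was 1.40 ± 0.078 (limma, adjusted p = 0.00085), at least 2.56-fold. With 5-Aza-CdR alone it was 0.50 ± 0.078, and although both arrays exceeded both control arrays the adjusted p was 0.17. Probe ILMN_1687400 read 8.51 and 8.49 in combinatorial arrays, 8.12 and 8.19 in 5-Aza-CdR arrays and 8.07 and 8.03 in clorgyline arrays, against 8.01 and 8.05 in control cells. It changed by 0.47 ± 0.033 with the combinatorial treatment (limma, adjusted p = 0.0019), under 2-fold.

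MAGEA1, the first tumor antigen found to be recognised by a patient's T cells, varied more between its combinatorial arrays. Probe ILMN_2181593 read 9.24 and 8.93 in combinatorial arrays, 8.35 and 8.53 in 5-Aza-CdR arrays and 8.001 and 7.99 in clorgyline arrays, against 8.03 and 7.99 in control cells. The log2 change was 1.08 ± 0.11 (limma, adjusted p = 0.0066), at least 1.94-fold over the background limit. Without combinatorial replicate 1 it was 0.92, under the 2-fold limit, so that call rests on 1 array, and the adjusted p was 0.068 without control replicate 1 and 0.067 without control replicate 2. With 5-Aza-CdR alone the change was 0.43 ± 0.11, and the adjusted p was 0.38. The second probe, ILMN_1722830, read 8.44 and 8.41 with the combinatorial treatment, against 8.24 and 8.25 in control cells, a change of 0.18 ± 0.048 (limma, adjusted p = 0.14).

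**Figure D2:**
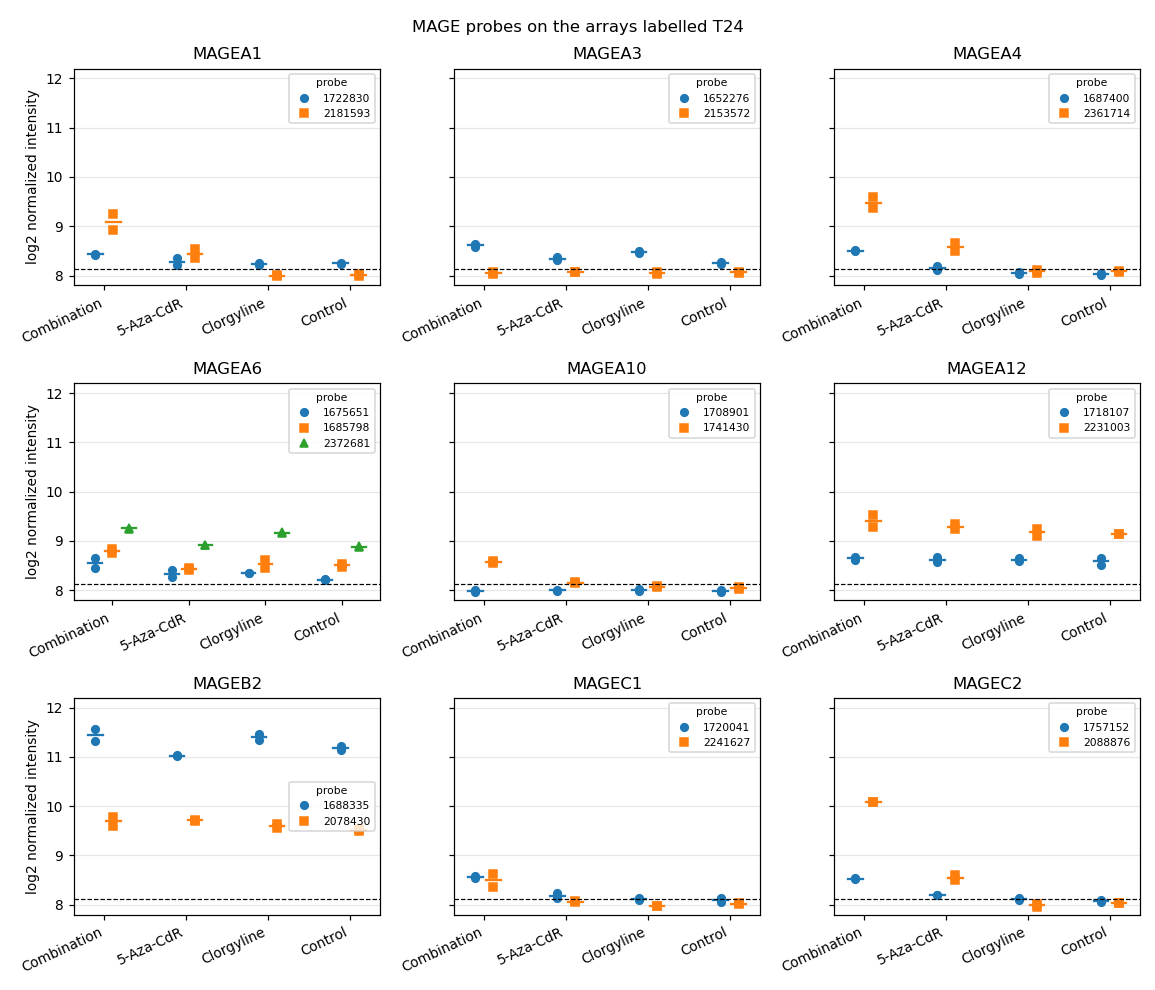
Log2 normalized intensity (vertical axis) of each MAGE probe on the 8 arrays labelled T24, by treatment (horizontal axis), with 1 panel per gene, each point 1 array, short bars the group means and the dashed line the mean background limit. MAGEC2 ILMN_2088876 reads 10.08 on both combinatorial arrays, against 8.03 on both control arrays, while the MAGEB2 probes are far above the limit in every group.

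MAGEA10 and MAGEC1, both silent in untreated T24, rose by less than 2-fold. MAGEA10, a MAGE-A antigen, read 8.55 and 8.58 in combinatorial arrays, 8.15 and 8.16 in 5-Aza-CdR arrays and 8.08 and 8.07 in clorgyline arrays, against 8.02 and 8.06 in control cells (ILMN_1741430). Its log2 change with the combinatorial treatment was 0.52 ± 0.023 (limma, adjusted p = 0.00038), at least 1.36-fold. The second MAGEA10 probe, ILMN_1708901, stayed below background in all 4 groups, between 7.96 and 8.02. MAGEC1, known as an antigen of multiple myeloma, read 8.58 and 8.55 in combinatorial arrays, 8.24 and 8.13 in 5-Aza-CdR arrays and 8.13 and 8.09 in clorgyline arrays, against 8.06 and 8.13 in control cells (ILMN_1720041). Its change with the combinatorial treatment was 0.47 ± 0.044 (limma, adjusted p = 0.0054), and its adjusted p was 0.0575 without control replicate 1. Its second probe, ILMN_2241627, changed by 0.47 ± 0.083 (limma, adjusted p = 0.042), and this call was lost in 8 alternatives, with an adjusted p of 0.23 without control replicate 1 and 0.20 without control replicate 2.

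The members already expressed in untreated T24 changed by less than 2-fold, apart from the MAGEA1 probe at background described above. MAGEB2 ILMN_1688335 read 11.32 and 11.56 in combinatorial arrays, 11.04 and 11.01 in 5-Aza-CdR arrays and 11.35 and 11.47 in clorgyline arrays, against 11.14 and 11.23 in control cells. The combinatorial change was 0.25 ± 0.084 with an adjusted p of 0.22 in limma, and its 95% interval of 0.05 to 0.46 ends below a 2-fold change. MAGEA12 ILMN_2231003, from the same cluster as MAGEA3 and MAGEA6, read 9.28 and 9.52 with the combinatorial treatment, against 9.14 and 9.13 in control cells (log2 change 0.27 ± 0.086, limma, adjusted p = 0.21). MAGEA6 ILMN_2372681 read 9.27 and 9.24 in combinatorial arrays, 8.91 and 8.91 in 5-Aza-CdR arrays and 9.15 and 9.19 in clorgyline arrays, against 8.89 and 8.87 in control cells. It was the only member probe that rose with clorgyline alone at an adjusted p under 0.05, by 0.29 ± 0.024 (limma, adjusted p = 0.014, 1.22-fold), and it rose by 0.37 ± 0.024 with the combinatorial treatment (limma, adjusted p = 0.0013). The clorgyline call did not hold without any 1 of the 4 clorgyline and control arrays (adjusted p of 0.066 to 0.14), nor in the fit over all 24 arrays (0.37). MAGEA3 ILMN_1652276 read 8.63 and 8.59 in combinatorial arrays, 8.31 and 8.38 in 5-Aza-CdR arrays and 8.46 and 8.51 in clorgyline arrays, against 8.27 and 8.24 in control cells, a combinatorial change of 0.35 ± 0.034 (limma, adjusted p = 0.0059) that missed the threshold without control replicate 1 (0.0567) and without control replicate 2 (0.0605). The other MAGEA3 probe, ILMN_2153572, stayed between 8.02 and 8.07 in all groups. Remaining probes are given as means of combinatorial, 5-Aza-CdR and clorgyline arrays, against control. MAGEB2 ILMN_2078430 averaged 9.69, 9.72 and 9.60, against 9.51, so with 5-Aza-CdR it was higher than control while ILMN_1688335 was lower. MAGEA12 ILMN_1718107 averaged 8.65, 8.62 and 8.62, against 8.58. MAGEA6 ILMN_1685798 averaged 8.79, 8.43 and 8.53, against 8.50, and ILMN_1675651 8.55, 8.34 and 8.35, against 8.22.

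By the main limits 0 of 19 probes rose with 5-Aza-CdR alone in T24, where 0.0635% of all probes rose and 0.00635% fell, and 0 of 19 rose with clorgyline alone, where 0% rose and 0.0487% fell. Neither treatment lowered a member past these limits. At an adjusted p under 0.05 with no fold limit the counts were 1 with 5-Aza-CdR (MAGEC2 ILMN_2088876, where 0.0932% of all probes rose) and 1 with clorgyline (MAGEA6 ILMN_2372681, where 0.0953% did). At an unadjusted p under 0.05 in limma, 8 of 19 rose with 5-Aza-CdR and 3 of 19 with clorgyline. Of all 47231 probes, 1818 rose with 5-Aza-CdR and 2390 with clorgyline at this limit. With 5-Aza-CdR 15 of 19 probes and all 9 genes were above background, and with clorgyline 9 probes and 5 genes, the same numbers as on the control arrays. Of all probes, 34.3% were above background with 5-Aza-CdR and 33.4% with clorgyline.

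Whether the combinatorial treatment exceeded 5-Aza-CdR alone was tested directly. The combinatorial over 5-Aza-CdR comparison called 1 of 19 probes higher by the main limits, where 0.148% of all probes were, and 9 of 19 at an adjusted p under 0.05, where 0.893% were. MAGEC2 ILMN_2088876 was 2.90-fold higher than with 5-Aza-CdR (log2 difference 1.53 ± 0.038, limma, adjusted p = 6.6e-05). MAGEA4 ILMN_2361714 was 1.87-fold higher (0.90 ± 0.078, limma, adjusted p = 0.0078), and without combinatorial replicate 1 the difference was 1.01, over the 2-fold limit. For MAGEA1 ILMN_2181593 the difference was 0.64 ± 0.11 and its adjusted p 0.054. With only the 4 arrays of the groups compared, 8 of the 9 probes no longer passed the adjusted limit (MAGEA4 ILMN_2361714 had 0.11) and MAGEC2 ILMN_2088876 did (0.020).

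Over clorgyline alone, the combinatorial treatment was higher for 3 of 19 probes by the main limits, where 0.246% of all probes were, and for 8 at an adjusted p under 0.05, where 1.44% were. The 3 were again MAGEC2 ILMN_2088876 (2.09 ± 0.038), MAGEA4 ILMN_2361714 (1.39 ± 0.078) and MAGEA1 ILMN_2181593 (1.09 ± 0.11). The interaction, the combinatorial change less the sum of the single changes on the log2 scale, was past the main limits for 1 of 19 probes, where 0.207% of all probes were. It was MAGEC2 ILMN_2088876, with an excess of 1.57 ± 0.054 (limma, adjusted p = 0.00042). MAGEA10 ILMN_1741430 (0.38 ± 0.033, limma, adjusted p = 0.016), MAGEC2 ILMN_1757152 (0.29 ± 0.036, adjusted p = 0.044) and MAGEA4 ILMN_2361714 (0.90 ± 0.11, adjusted p = 0.047) passed at an adjusted p under 0.05, where 0.322% of all probes did. These 3 missed it in 7, 11 and 8 alternatives, as with the adjusted p of 0.23 for MAGEA4 without control replicate 1. The 5-Aza-CdR levels of these probes lie near background, where changes are compressed, so each excess is given on that scale.

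**Figure D3:**
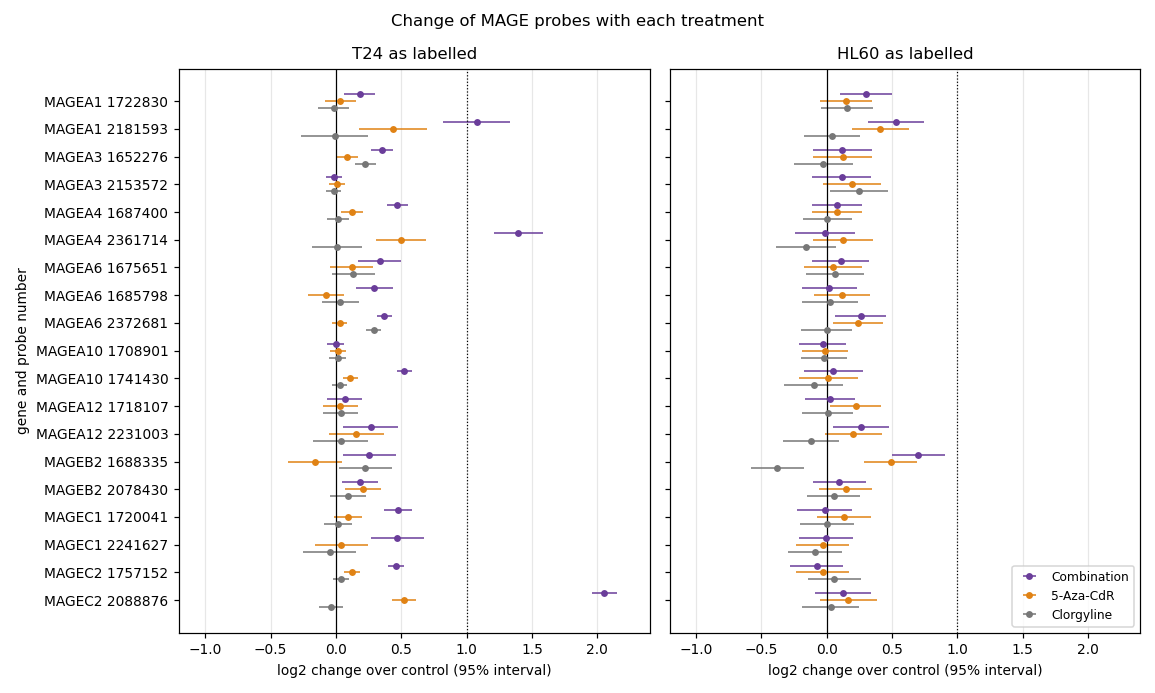
Log2 change over control (horizontal axis) of the 19 MAGE probes (rows) with each treatment in arrays labelled T24 (left) and HL60 (right), with points the limma estimates, bars their 95% intervals and the dotted line a 2-fold change. In T24 the MAGEC2 ILMN_2088876 change is 2.05 for the combination and 0.52 for 5-Aza-CdR, while in HL60 the largest change is that of MAGEB2 ILMN_1688335, 0.70 with the combinatorial treatment.

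In HL60 the member with the largest change was MAGEB2. By the main limits 0 of 19 probes rose over control for the combination (0.741% of all probes did), 0 for 5-Aza-CdR (0.423%) and 0 for clorgyline (0.091%). None fell, where 0.36% of all probes fell for the combination, 0.377% for 5-Aza-CdR and 0.0318% for clorgyline. At an unadjusted p under 0.05 in limma, 5 rose in combinatorial arrays, 4 in 5-Aza-CdR arrays and 1 rose while 1 fell in clorgyline arrays. Of all 47229 probes, 4669 rose in combinatorial arrays and 4005 in 5-Aza-CdR arrays at this limit, and 2439 rose while 2189 fell in clorgyline arrays. At an adjusted p under 0.05, MAGEB2 ILMN_1688335 and MAGEA1 ILMN_2181593 rose with the combinatorial treatment, where 5.55% of all probes did, and the same 2 probes rose with 5-Aza-CdR, where 3.56% did, and 0 rose with clorgyline, where 0.453% did. A count of 2 of 19 is near these backgrounds. Marker lists moved on the same arrays, with 3 of 13 myeloid probes past the main limits upward for the combination and 2 for 5-Aza-CdR, and for each of these treatments 2 of 10 mesenchymal, 1 of 13 intestinal and 1 of 10 germ cell probes. ELANE, neutrophil elastase, averaged 10.07 in combinatorial, 9.80 in 5-Aza-CdR and 7.45 in clorgyline arrays, against 7.42 in control arrays. The part of these markers in the MAGE values was not tested.

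MAGEB2 ILMN_1688335, already expressed without drug, read 10.89 and 10.82 in combinatorial arrays, 10.56 and 10.74 in 5-Aza-CdR arrays and 9.72 and 9.83 in clorgyline arrays, against 10.11 and 10.20 in control cells. No 2 of the 4 groups overlapped, and clorgyline was the lowest. The log2 change was 0.70 ± 0.093 for the combination (1.63-fold, limma, adjusted p = 0.00039) and 0.49 ± 0.093 for 5-Aza-CdR (1.41-fold, limma, adjusted p = 0.0068). With clorgyline it was −0.38 ± 0.093 with an adjusted p of 0.11. The combinatorial treatment stood 2.11-fold over clorgyline alone (limma, adjusted p = 1.4e-05), the 1 probe of 19 past the main limits in that comparison, where 0.714% of all probes were, and over 5-Aza-CdR it was 0.21 ± 0.093 higher with an adjusted p of 0.36, where 0 of 19 member probes and 0.0508% of all probes passed the main limits. Over clorgyline alone 3 of 19 passed at an adjusted p under 0.05, where 4.83% of all probes did, with MAGEA1 ILMN_2181593 and MAGEA12 ILMN_2231003 as the other 2. The interaction of MAGEB2 ILMN_1688335 was 0.59 ± 0.13 with an adjusted p of 0.17, and 0 of 19 passed the main limits there, where 0.0466% of all probes did. The second probe, ILMN_2078430, read 7.54 and 7.38 in combinatorial arrays, 7.59 and 7.43 in 5-Aza-CdR arrays and 7.38 and 7.46 in clorgyline arrays, against 7.39 and 7.34 in control cells. It lay below background in every group, so the change in HL60 rests on 1 probe. The 5-Aza-CdR call of ILMN_1688335 had an adjusted p of 0.073 without control replicate 1 and 0.078 without 5-Aza-CdR replicate 2.

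MAGEA1 ILMN_2181593 read 8.03 and 7.87 in combinatorial arrays, 7.75 and 7.91 in 5-Aza-CdR arrays and 7.41 and 7.51 in clorgyline arrays, against 7.33 and 7.50 in control cells. Both 5-Aza-CdR-containing groups were above background and both others below it. The change was 0.53 ± 0.099 for the combination (limma, adjusted p = 0.0038), at least 1.24-fold, and 0.41 ± 0.099 for 5-Aza-CdR (limma, adjusted p = 0.027), at least 1.14-fold. Without control replicate 1 the adjusted p was 0.0567 for the combination and 0.22 for 5-Aza-CdR. MAGEC2, which led in T24, passed no test in HL60. ILMN_1757152 read 8.04 and 7.86 in combinatorial arrays, 7.95 and 8.05 in 5-Aza-CdR arrays and 8.03 and 8.13 in clorgyline arrays, against 7.99 and 8.06 in control cells, and ILMN_2088876 stayed below background in all 4 groups (7.26 to 7.54). MAGEA4, MAGEA10 and MAGEC1 had 0 of 6 probes above background on both arrays of any HL60 group.

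**Figure D4:**
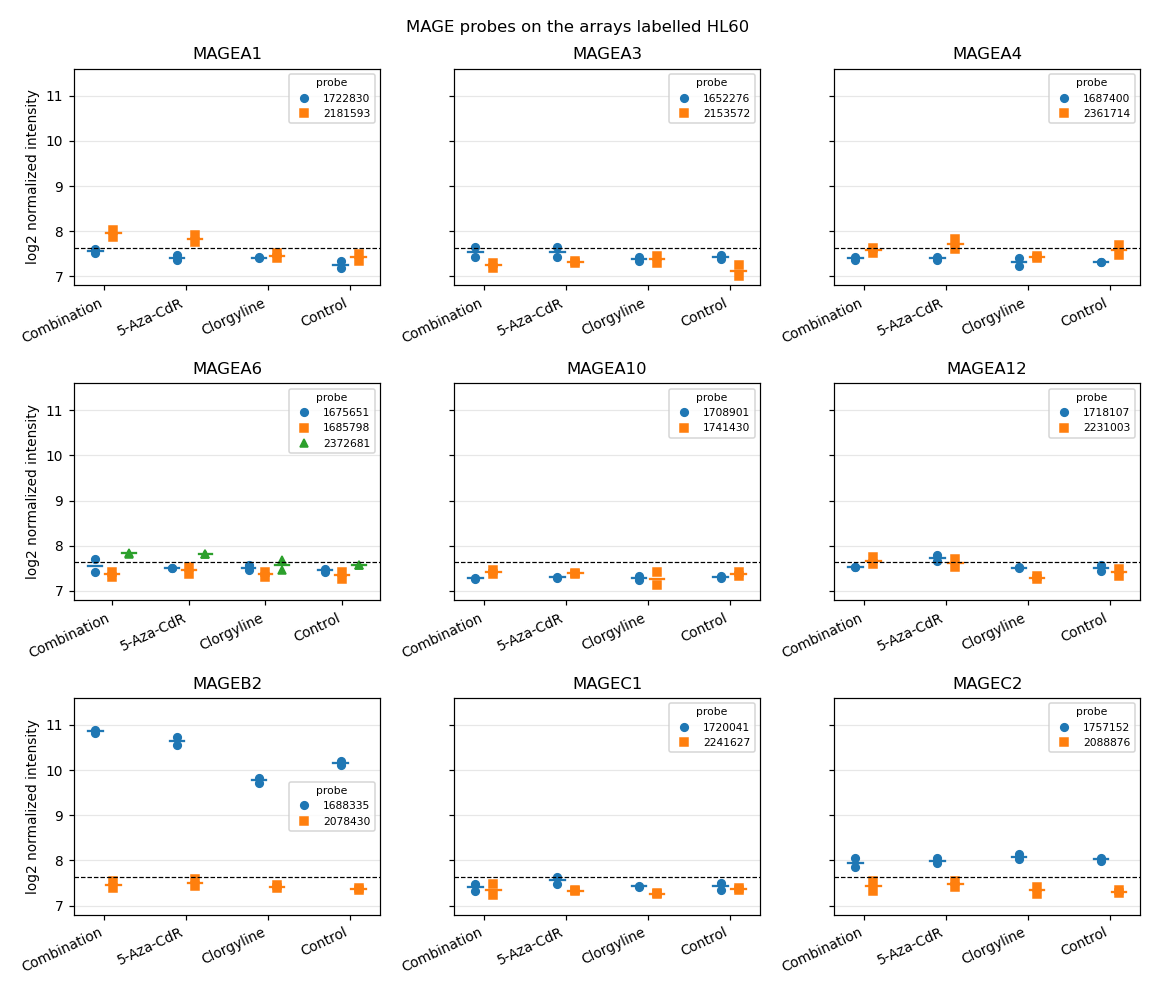
Log2 normalized intensity (vertical axis) of each MAGE probe on the 8 arrays labelled HL60, by treatment (horizontal axis), with 1 panel per gene, each point 1 array, short bars the group means and the dashed line the mean background limit. MAGEB2 ILMN_1688335 reads 10.89 and 10.82 with the combinatorial treatment, against 10.11 and 10.20 in control cells, and its second probe lies below the limit.

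The change with the combinatorial treatment was set against that in T24 in limma over all 24 arrays. It was smaller in HL60 by over 1 on the log2 scale for 2 of 19 probes, where 0.506% of all probes were, and larger for 0, where 0.828% were. These were MAGEC2 ILMN_2088876 (HL60 minus T24 −1.93 ± 0.093, adjusted p = 4.0e-09) and MAGEA4 ILMN_2361714 (−1.41 ± 0.13, adjusted p = 5.9e-06). At an adjusted p under 0.05, 8 of 19 were smaller in HL60, where 4.48% of all probes were, and 0 larger, where 4.25% were. For 5-Aza-CdR alone 0 of 19 differed by over 1 in either direction, where 0.436% of all probes were larger in HL60 and 0.18% smaller. By the adjusted limit alone, 1 was larger (MAGEB2 ILMN_1688335, where 2.25% of all probes were) and 1 smaller (MAGEC2 ILMN_2088876, where 2.1% were).

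On the treated arrays labelled HCT116, MAGEB2, MAGEA12, MAGEA6, MAGEA3 and MAGEA1 had probes above background in all 3 groups, and 10 of 19 probes were above it on combinatorial arrays, 9 on 5-Aza-CdR arrays and 15 on clorgyline arrays, against 1 on the control arrays. MAGEB2 ILMN_1688335 read 10.49 and 10.92 in combinatorial arrays, 10.80 and 10.62 in 5-Aza-CdR arrays and 10.82 and 10.73 in clorgyline arrays, against 7.68 and 7.68 on the control arrays. MAGEB2 was at background on the control arrays and at least 7.74-fold over it on all 3 treated groups, which overlapped each other. The second MAGEB2 probe and MAGEA12 ILMN_2231003 were the other probes past the main limits, 3 of 19 with each treatment, where 1.14% of all probes rose in combinatorial, 1.26% in 5-Aza-CdR and 1.11% in clorgyline arrays. MAGEA12 ILMN_2231003 read 8.89 and 8.69 in combinatorial arrays, 8.79 and 8.74 in 5-Aza-CdR arrays and 8.64 and 8.61 in clorgyline arrays, against 7.64 and 7.58 on the control arrays. By the adjusted limit alone, 7 of 19 rose in combinatorial arrays, 7 in 5-Aza-CdR arrays and 12 in clorgyline arrays, where 5%, 5.28% and 5.01% of all probes did. The MAGEA12 clorgyline change was 1.02, and 0.99 without control replicate 2. All 3 contrasts share the 2 control arrays, which stand apart in EPCAM and CDH2 as given above, and the part of that difference in the MAGE values was not tested.

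Between the treated groups labelled HCT116, 0 of 19 probes passed the main limits for combinatorial over 5-Aza-CdR (0.00423% of all probes were higher), combinatorial over clorgyline (0.0148%) and clorgyline over 5-Aza-CdR (0.169%). Clorgyline over 5-Aza-CdR gave 2 probes at an adjusted p under 0.05, where 0.362% of all probes were higher. MAGEC2 ILMN_2088876 read 8.14 and 8.06 with clorgyline, against 7.55 and 7.57 on 5-Aza-CdR arrays, 7.59 and 7.55 on combinatorial arrays and 7.61 and 7.59 on the control arrays. Only the clorgyline arrays were above background, and they exceeded 5-Aza-CdR by 0.54 ± 0.035 (limma, adjusted p = 0.0052), at least 1.28-fold, with an adjusted p of 0.086 without 5-Aza-CdR replicate 1 and 0.0735 without 5-Aza-CdR replicate 2. Combinatorial over clorgyline gave 2 lower probes at an adjusted p under 0.05, where 0.307% of all probes were lower, MAGEC2 ILMN_2088876 (−0.53) and MAGEA1 ILMN_2181593 (−0.29), and these calls were lost in 3 and 13 alternatives. MAGEA1 ILMN_2181593 read 7.93 and 7.85 with clorgyline, against 7.58 and 7.59 with 5-Aza-CdR (0.31 ± 0.034, limma, adjusted p = 0.035), and that call was lost in 10 alternatives. MAGEA4 ILMN_2361714 read 8.21 and 8.05 with clorgyline, against 7.63 and 7.64 with 5-Aza-CdR, with an adjusted p of 0.075. These groups also differ in markers. VIM ILMN_1782538 averaged 11.77 on the clorgyline arrays, against 9.59 on 5-Aza-CdR and 9.65 on combinatorial arrays, CDH2 was above background on the clorgyline arrays alone among the 3, and 7 of 10 intestinal markers were above it there, against 3 on the 5-Aza-CdR arrays. Their part in the MAGE values was not tested. MAGEC2, MAGEA1 and MAGEA4 are the 3 genes that the combinatorial treatment raised over 2-fold on the arrays labelled T24. Over all probes the mean profile of the HCT116 clorgyline group correlated with those of T24 combinatorial, 5-Aza-CdR, clorgyline and control at 0.991, 0.991, 0.985 and 0.984, while that of the HCT116 5-Aza-CdR group correlated at 0.980, 0.986, 0.996 and 0.989.

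**Figure D5:**
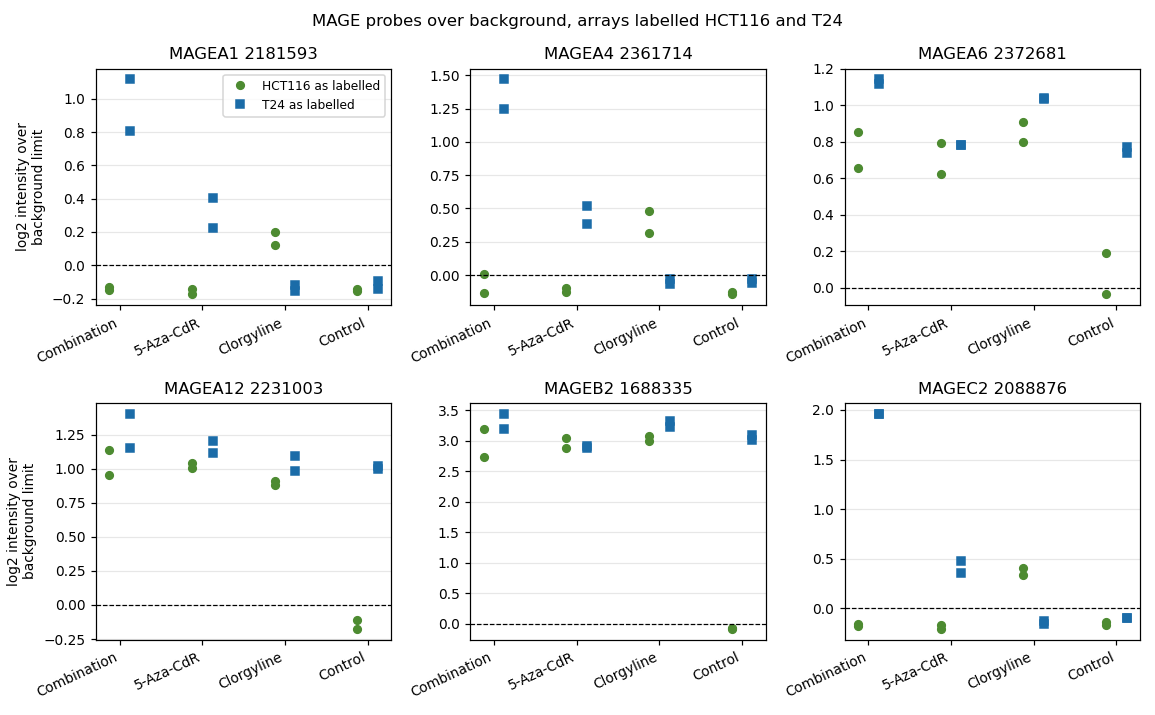
Log2 intensity over each array's background limit (vertical axis) of 1 probe each of 6 MAGE genes, by treatment (horizontal axis), on arrays labelled HCT116 (circles) and T24 (squares), each point 1 array. MAGEB2 and MAGEA12 are above the limit on every array except the HCT116 controls, and MAGEA1, MAGEA4 and MAGEC2 lie highest on the T24 combinatorial arrays and, among arrays labelled HCT116, on the clorgyline arrays.

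Other genes of the pathway were given by fixed lists. Of 28 probes for other type I MAGE genes, 1 rose past the main limits with the combinatorial treatment in T24 and 5 at an adjusted p under 0.05, with a median log2 change of 0.02. The 1 was MAGEA8 (ILMN_2069915), by 1.26 ± 0.074 (limma, adjusted p = 0.0010). Of 20 type II MAGE probes and 14 probes of ubiquitin ligase partners, 0 passed the main limits in T24 in either direction, and PJA1 ILMN_2373566, an X-linked RING ligase, changed by 0.34 ± 0.026 (limma, adjusted p = 0.0025). CTCFL, also called BORIS, is a germ cell paralogue of the insulator protein CTCF and itself a cancer testis gene. It rose in T24 by 1.39 ± 0.068 for the combination (limma, adjusted p = 0.00050) and by 1.02 ± 0.068 for 5-Aza-CdR (adjusted p = 0.0088). In HL60, CTCFL rose by 1.95 ± 0.11 for the combination (limma, adjusted p = 3.2e-07) and by 1.99 ± 0.11 for 5-Aza-CdR (adjusted p = 2.8e-07), so on those arrays it passed the limits where 0 of the 19 member probes did. CTCFL was the 1 probe past the main limits in these comparisons among 15 probes of 8 listed regulators. KDM1A, the gene of LSD1, changed by −0.34 for the combination in HL60 (limma, adjusted p = 0.026). On arrays labelled HCT116, 4 of 15 rose over control with clorgyline, where 1.11% of all probes did, beside the marker difference given above. They were DNMT1 (1.78), UHRF1 (1.68), CTCFL (1.47) and MAOA (1.05). DNMT1 and UHRF1 also passed the main limits in 5-Aza-CdR arrays (1.71 and 1.81) and in combinatorial arrays (1.53 and 1.20). CTCFL passed them over control in clorgyline arrays alone. Its level there exceeded that of 5-Aza-CdR arrays by 1.45 ± 0.063 (limma, adjusted p = 0.0014). Combinatorial minus clorgyline was −1.45 for CTCFL. These treated groups differ in markers too, as given above. In HL60, 0 of 28 other type I and 0 of 20 type II MAGE probes passed the main limits with any treatment over control. On arrays labelled HCT116, 2 of 28 other type I probes rose past them with each treatment, both of MAGEA9B. For combination, 5-Aza-CdR and clorgyline, ILMN_2075292 changed by 2.67, 2.67 and 2.90, where 1.14%, 1.26% and 1.11% of all probes rose. ILMN_1670255 changed by 1.20, 1.29 and 1.48. Of 20 type II probes 1 fell, MAGED1 ILMN_1775522 (−1.04 with 5-Aza-CdR), where 722 of 47231 probes fell. The marker difference given above lies beside these changes too.

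Outside the MAGE lists, the genes whose profile over the 8 T24 arrays was most like that of MAGEC2 ILMN_2088876 were UCHL1, a deubiquitinating enzyme (Pearson r = 0.996), CT45A3, an X-linked cancer testis gene (0.994), and H2BC5, a histone H2B gene (0.994), among 344 genes with a range over 1. UCHL1 averaged 9.77 in combinatorial arrays, 8.53 in 5-Aza-CdR arrays and 8.09 in clorgyline arrays, against 8.04 in control cells. For MAGEB2 ILMN_1688335 in HL60 they were CD163L1, a scavenger receptor gene (0.993), S100A4, a calcium-binding protein (0.989), and ATP5MC1, a subunit of ATP synthase (0.989), among 1410 genes. CD163L1 averaged 10.78 in combinatorial arrays, 10.54 in 5-Aza-CdR arrays and 9.35 in clorgyline arrays, against 9.84 in control cells. These correlations are descriptions over arrays that share treatments and normalization.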

How the data were processed

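Bead intensities were processed by the authors in lumi, version 2.6.0 (T24 and HCT116) and 2.8.0 (HL60) and deposited log2 values after Robust Spline Normalization, normalized within a cell line. The background correction is not given in the sources used here. Probes were named through GEO's platform annotation, in which 30113 probes carry 1 symbol, 8 carry several and 17110 are not named. The text names all member probes, a part of the called probes of the fixed lists, and the 3 genes most like the leading member probe of T24 and of HL60. Members and lists were chosen with earlier results of these data known. Each line was fitted over its 8 arrays and all probes in R 4.3.3 with the package limma 3.58.1 and 1 coefficient for every condition, leaving 4 residual degrees of freedom, and p-values were adjusted by Benjamini-Hochberg over all probes. Differences between lines were fitted over 24 arrays. 2 HL60 probes with missing values were left out. On simulated data, 200, 198 and 197 of 200 probes shifted by 1.5 were recovered in T24, HL60 and HCT116, with 0, 3 and 8 false calls, which does not bear on smaller shifts. Precision is that of 2 arrays per condition. Sequences are RefSeq's.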

Additional observations from a re-analysis of the deposited data

Results flagged for a closer look

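These probes are listed because their change over control differed between HL60 and T24, tested in limma over all 24 arrays at an adjusted p under 0.05, and the dose of 5-Aza-CdR differed between the lines too. With 5-Aza-CdR alone, the change of MAGEB2 ILMN_1688335 was larger in HL60 by 0.65 (HL60 minus T24, adjusted p = 0.031), and for MAGEC2 ILMN_2088876 the difference was −0.35 (adjusted p = 0.045). With the combinatorial treatment 8 probes changed less in HL60. MAGEC2 differed by −1.93 with ILMN_2088876 and by −0.53 with ILMN_1757152, and MAGEA4 by −1.41 with ILMN_2361714 and by −0.39 with ILMN_1687400. MAGEC1 differed by −0.49 with ILMN_1720041 and by −0.48 with ILMN_2241627. MAGEA1 ILMN_2181593 differed by −0.54, and MAGEA10 ILMN_1741430 by −0.47. Both MAGE-C genes and MAGEA4 are represented by all of their probes, while MAGEA1 and MAGEA10 are represented by 1 of 2. No member probe changed significantly more in HL60 with the combinatorial treatment at that limit. The cause of these differences was not tested.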

How the results depend on the processing

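Replacing p under 0.01 by an adjusted p under 0.05 and keeping the fold limit changed none of the counts of MAGE probes called. At an adjusted p under 0.05 with no fold limit, the probes called higher in T24 numbered 10 for the combinatorial treatment over control, 1 for 5-Aza-CdR, 1 for clorgyline, 9 for combinatorial over 5-Aza-CdR, 8 for combinatorial over clorgyline and 4 for the interaction. In HL60 they were 2 for the combinatorial treatment, 2 for 5-Aza-CdR and 3 for combinatorial over clorgyline, and in HCT116 they were 7, 7 and 12 for the combinatorial treatment, 5-Aza-CdR and clorgyline over control and 2 for clorgyline over 5-Aza-CdR. The HL60 minus T24 difference then had 1 probe larger and 1 smaller for 5-Aza-CdR and 8 smaller for the combinatorial treatment. Leaving out 1 array at a time gave 2 to 3 probes for the combinatorial treatment over control and over clorgyline in T24, and 1 to 2 both over 5-Aza-CdR and for the interaction, always with combinatorial replicate 1 as the array that changed the count. Without HCT116 control replicate 2, clorgyline over control gave 2. With the 75th percentile of all probes as background, 6 T24 probes of 3 genes, 1 HL60 and 0 HCT116 probes were above it untreated, and with the 99th percentile of olfactory receptor probes 6 T24, 2 HL60 and 0 HCT116 probes were. Of 70 changes past an adjusted p under 0.05, recomputed 1022 times in all, 856 stayed past it, 166 did not and 0 changed direction.

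The labels do not tell whether equal replicate numbers pair the arrays. Deviations of equal numbers correlated between −0.12 and 0.07 in T24, −0.07 and 0.18 in HL60 and −0.04 and 0.21 in HCT116. The correlation was over 0.1 in 0, 2 and 1 of 6 pairs of groups in T24, HL60 and HCT116. With the replicate block, the T24 combinatorial count stayed at 3 and no other count by the main limits changed. Of the calls at an adjusted p under 0.05, 6 in T24 and 4 in HCT116 were lost under it, among them MAGEC2 ILMN_2088876 with 5-Aza-CdR in T24 (0.0548), the only member called there. The fit of the HCT116 treated arrays alone was added after seeing the data and gave 0 in the 3 comparisons between treatments. Most members lie near background, where the arrays cannot show small changes.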
